A study of Mus musculus with 18 samples.

Results

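RNA of cells labelled as epidermal basal cells, from mouse embryos, was compared between HrasG12V and WT, both carrying a scrambled control shRNA. All genes of the RNA libraries were used, so that the comparison rests on 6 of the 18 libraries of the series: 3 of HrasG12V shScram and 3 of WT shScram. The shRNA was delivered to the epidermis by injection in utero at E9.5, and the cells were collected at E18.5 after enzymatic separation of epidermis from dermis in the presence of cycloheximide, a translation inhibitor. The series also holds 3 RNA libraries of HrasG12V cells in which the shRNA targets Eif2b5 (called HrasG12V shEif2b5), and 9 libraries of ribosome footprints from the same 3 conditions. Per the labels, the strain of the HrasG12V embryos was FR-HrasG12V, while WT embryos belonged to a strain with a tdTomato and EGFP reporter at Gt(ROSA)26Sor. Strain and genotype therefore cannot be told apart, and the labels do not say which promoter or recombinase controls the HrasG12V allele. The labels leave unsaid whether libraries 1 to 3 of a group derive from different embryos or litters, and p-values then cover library-to-library spread alone, which may be technical.

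HRAS is a small GTPase that passes signals from growth factor receptors to the RAF, MEK and ERK kinases, and the G12V change keeps it in the active, GTP-bound form. Active ERK induces transcription factors of the ETS and EGR families, and also phosphatases and Sprouty proteins that dampen the pathway. In epidermis, RAS and ERK signalling is known for its roles in the proliferation of basal keratinocytes and in the response to wounding.

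Hras itself (ENSMUSG00000025499.18; mm10 chromosome 7, 141189105 to 141194005, on the minus strand) stood at 261, 227 and 210 CPM in the RNA of WT shScram and at 235, 181 and 216 CPM in HrasG12V shScram. CPM, the count of a gene scaled to a common library size, is not corrected for gene length. The ranges overlapped, and the log2 fold change was −0.14 (SE 0.16, 95% interval −0.47 to 0.19, edgeR adjusted p 0.623). Since reads of the WT and G12V alleles were counted together, this level is no check of the genotype. Eif2b5, which encodes a subunit of the translation initiation factor eIF2B and was not targeted in these 2 groups, stood at 158, 179 and 159 CPM in WT shScram and at 127, 388 and 145 CPM in HrasG12V shScram. HrasG12V shScram library 2 stood apart from the other libraries there, and the log2 fold change was 0.39 (edgeR adjusted p 0.553). With HrasG12V shScram 2 as the only library of its group it was 1.24. In HrasG12V shEif2b5, where Eif2b5 was targeted, it stood at 134, 128 and 143 CPM, near HrasG12V shScram 1 and 3.

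The RNA libraries held between 1771365 (HrasG12V shScram 2) and 5505386 (WT shScram 3) counts over coding sequences, and 11096 genes were tested. In HrasG12V shScram libraries 1 and 3 the level of a gene followed the GC content of its coding sequence. The slope was −0.32 and −0.42 log2 units per 10 percentage points of GC in these 2 libraries. It was 0.03 in HrasG12V shScram 2, −0.04 to 0.13 in WT shScram and 0.05 to 0.28 in HrasG12V shEif2b5. HrasG12V shScram 1 and 3 were also set apart on the first principal component, at 34.6 and 36.9. HrasG12V shScram 2 stood there at 1.04, WT shScram at −11.7 to −1.71 and HrasG12V shEif2b5 at −24.6 to −8.53. How far this trend enters the HrasG12V shEif2b5 levels given below was not tested. A further fit with an offset for coding GC and coding length in each library, which called 406 of 11043 genes (3.68%), was therefore set beside the first, and whether the trend is of technical or biological origin was not tested. The terms rose and fell are used below for genes at an edgeR adjusted p under 0.05 in the fit without offsets, and "in both fits" marks those that also passed, in the same direction, with the offsets.

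**Figure D1:**
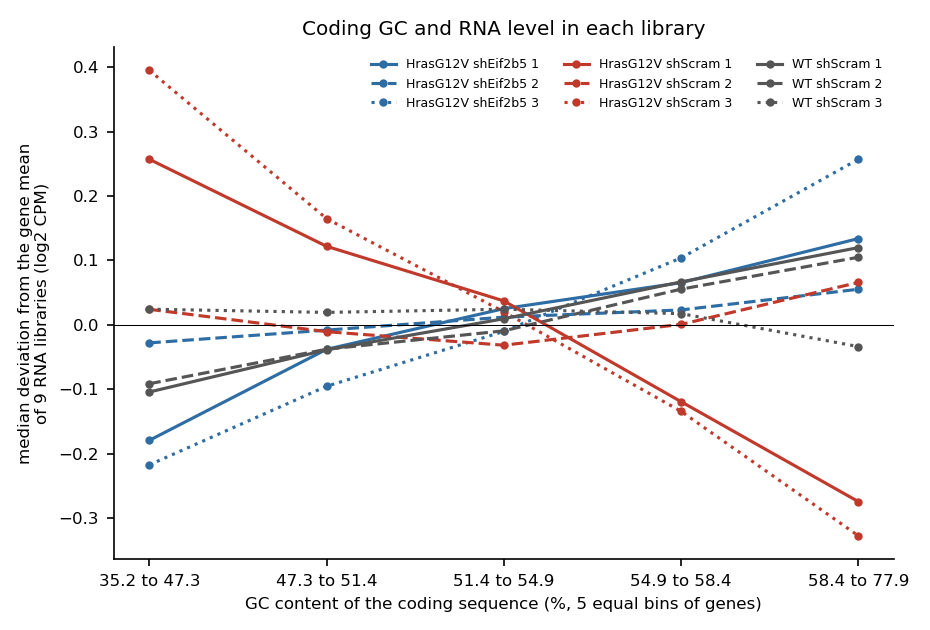
Median deviation of each RNA library from the gene mean over 9 RNA libraries (log2 CPM, y axis) in 5 equal bins of genes by coding GC (percent, x axis), with 1 line per library. HrasG12V shScram libraries 1 and 3 run from 0.257 and 0.395 in the lowest bin to −0.27 and −0.33 in the highest, while HrasG12V shScram library 2 stays between −0.03 and 0.066.

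In all, 854 genes (7.7% of those tested) were called, 517 higher (4.66%) and 337 lower (3.04%) in HrasG12V shScram. 2812 genes had an unadjusted p under 0.05. Both fits called 306 genes (2.76%), 207 higher (1.87%) and 99 lower (0.892%), and 152 of these differed by more than 2-fold. The calls of the first fit were strongly unequal over coding GC. In the lowest of 5 equal bins of coding GC (35.2% to 47.3%), 253 genes were higher and 2 lower, and in the highest (58.4% to 77.9%), 24 were higher and 175 lower. Of the genes called in both fits, 42 were higher and 2 lower in the lowest bin and 22 higher and 34 lower in the highest. The 548 genes called in the first fit only, 310 higher and 238 lower, did not keep their call with the offsets. Without HrasG12V shScram libraries 1 and 3 together, 47 genes were called (43 higher and 4 lower), 31 of them among the 306. In that fit the lone library of the group is assumed to vary like the other groups. HrasG12V shScram 2 alone lay beyond all 3 WT shScram libraries for 304 of the 306 genes, on the side of the call, though this library also entered the fits that chose them. Without 1 library the count of calls was 246, 2434 and 294 (HrasG12V shScram 1, 2 and 3) and 189, 229 and 399 (WT shScram 1, 2 and 3), and 112 of the 306 genes were called in all 6 of these fits.

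**Figure D2:**
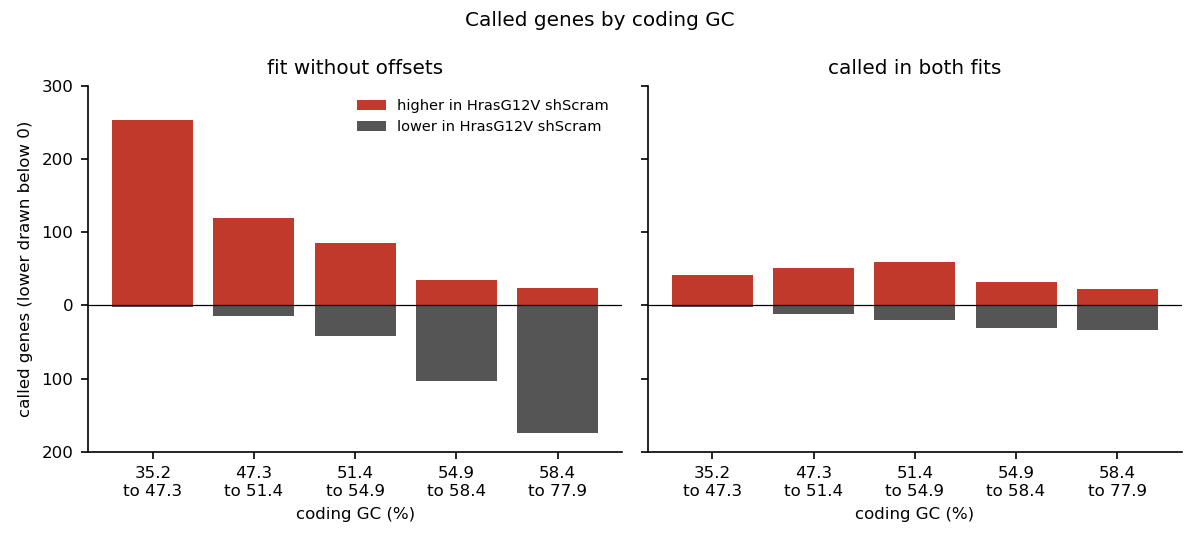
Number of genes called higher (above 0) and lower (below 0) in HrasG12V shScram in 5 equal bins of coding GC, in the fit without offsets (left) and in both fits (right). The left panel runs from 253 higher and 2 lower to 24 higher and 175 lower, the right panel from 42 higher and 2 lower to 22 higher and 34 lower.

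Dusp6, Spry1, Spry2 and Spry4, feedback inhibitors that ERK induces, were higher in every HrasG12V shScram library than in any WT shScram library. Dusp6 (ENSMUSG00000019960.8; chromosome 10, 99263231 to 99267489), a phosphatase that inactivates ERK, had 92.7, 79.7 and 111 CPM in WT shScram and 248, 200 and 290 CPM in HrasG12V shScram. It rose by 1.38 on the log2 scale (SE 0.17, adjusted p 0.000333), with 259, 214 and 215 CPM in the HrasG12V shEif2b5 libraries. Sprouty genes, whose products restrain receptor signalling to RAS and ERK, moved with it. Spry1 stood at 25.9, 21.8 and 18.4 CPM against 54.4, 47.2 and 58.3 CPM (log2 fold change 1.31, SE 0.17, adjusted p 0.000572). Spry2 stood at 38.0, 28.0 and 34.0 CPM against 68.9, 70.0 and 75.8 CPM (1.10, SE 0.17, adjusted p 0.00127). Spry4 was low in WT shScram, at 4.05, 3.11 and 1.08 CPM, and reached 23.1, 12.2 and 13.2 CPM in HrasG12V shScram (2.77, SE 0.41, adjusted p 0.000981). No library of one group reached the range of the other for any of these 4 genes, as for 2900 of the 11096 genes tested (26.1%). They kept their calls in both fits and in all 6 fits without 1 library.

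The promoters of Dusp6, Spry1 and Spry2 are shown because these 3 genes moved together and their annotated starts coincide with RefSeq starts. Each window covers 250 bases before to 50 after the start, from RefSeq on GRCm38.p6, and is written 5′ to 3′ on the strand of the gene. 3 motifs were searched on both strands: an ETS site (CCGGAA), the AP-1 site (TGANTCA) and the CRE (TGACGTCA), and capitals mark matches. The windows are chr10:99262981-99263280 (plus strand), chr3:37639697-37639996 (plus strand) and chr14:105896770-105897069 (minus strand).
Dusp6: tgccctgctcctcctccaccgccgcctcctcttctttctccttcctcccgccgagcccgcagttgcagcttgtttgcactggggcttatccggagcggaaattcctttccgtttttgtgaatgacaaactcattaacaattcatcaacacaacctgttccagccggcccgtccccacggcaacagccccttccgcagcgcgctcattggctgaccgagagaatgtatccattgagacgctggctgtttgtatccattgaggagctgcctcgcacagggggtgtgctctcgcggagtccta
Spry1: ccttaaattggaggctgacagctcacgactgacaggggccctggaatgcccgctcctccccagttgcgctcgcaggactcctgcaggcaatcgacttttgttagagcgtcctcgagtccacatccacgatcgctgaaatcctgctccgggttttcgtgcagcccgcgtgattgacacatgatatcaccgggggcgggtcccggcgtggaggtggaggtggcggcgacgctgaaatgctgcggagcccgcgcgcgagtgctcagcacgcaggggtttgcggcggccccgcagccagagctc
Spry2: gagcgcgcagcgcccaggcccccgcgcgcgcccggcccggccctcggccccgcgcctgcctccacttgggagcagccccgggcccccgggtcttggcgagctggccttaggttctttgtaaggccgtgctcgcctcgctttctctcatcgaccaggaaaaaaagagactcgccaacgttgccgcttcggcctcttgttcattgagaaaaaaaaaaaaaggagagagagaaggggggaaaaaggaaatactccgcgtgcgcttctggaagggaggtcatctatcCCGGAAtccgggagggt
The Spry2 window held 1 match to CCGGAA, and no other match to the 3 motifs lay in the 3 windows. Shorter ETS letters such as GGAA were not searched and are not marked. Over 27025 mouse promoter windows of this length, 15.2% held CCGGAA, 7.9% the AP-1 site and 1.9% the CRE. A match is only a description of letters, and none of these libraries measures binding.

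The transcription factors downstream of ERK divided into those that rose and a larger number that did not pass. Etv4, an ETS factor, stood at 27.5, 31.5 and 27.8 CPM in WT shScram and at 108, 80.5 and 92.2 CPM in HrasG12V shScram, and had the smallest p of all genes (log2 fold change 1.70, SE 0.16, adjusted p 7.58e-05). Etv5, its close relative, went from 16.6, 14.0 and 21.9 CPM to 61.9, 42.7 and 51.6 CPM (1.55, SE 0.21, adjusted p 0.000572). Egr1, an immediate early zinc finger factor, went from 42.9, 39.2 and 33.6 CPM to 94.5, 85.5 and 61.1 CPM (1.07, SE 0.20, adjusted p 0.00605). In HrasG12V shEif2b5 the levels were 104, 86.9 and 85.5 CPM for Etv4 and 54.0, 62.8 and 86.4 CPM for Egr1. These 3 genes kept their calls in both fits and in every fit without 1 library. AP-1 genes did not pass in the fit without offsets, where Fos differed by −0.68 (adjusted p 0.196), Jun by −0.08, Fosl2 by −0.54 and Junb by 0.39 (adjusted p 0.399). With the offsets Junb was called (0.68, adjusted p 0.0379).

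Over the list of 11 ERK feedback inhibitors, 4 were higher and none lower (36.4%, against 7.7% of all genes tested). The median log2 fold change was 0.32, against 0.00855 over all genes tested. Those without a call included Dusp4 (0.51, adjusted p 0.272), Spred1 (0.15) and Errfi1 (0.03). Of 22 tested ERK-induced transcription factors, 3 were higher and none lower (13.6%), with a median of 0.08. Both lists have a high mean coding GC (58.1% and 60.6%), and their medians were 0.59 and 0.29 with the offsets. In HrasG12V shScram 2 alone they were 1.00 and 0.59. The per-library medians, relative to the mean of WT shScram, were 0.30, 0.85 and 0.15 for the feedback inhibitors in HrasG12V shScram 1, 2 and 3. Without HrasG12V shScram 2 the median of the transcription factor list turned to −0.01.

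**Figure D3:**
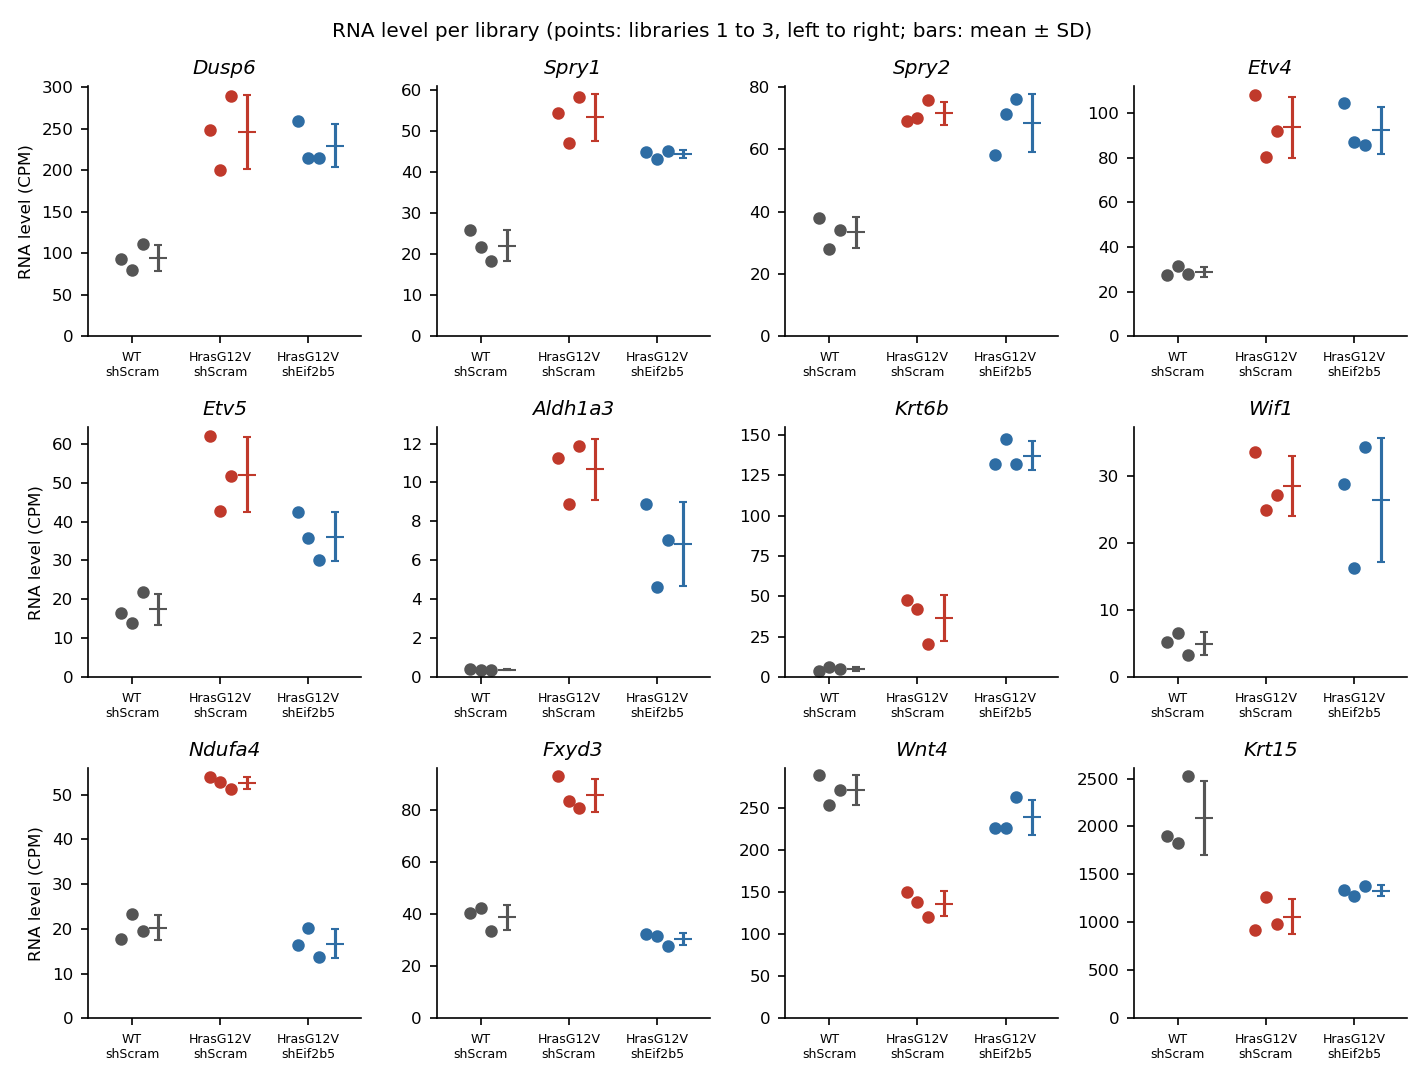
RNA level in CPM (y axes, linear, from 0) of 12 genes in each of 9 libraries, with points for libraries 1 to 3 from left to right and bars for mean ± SD of 3 libraries. The HrasG12V shScram points of the first 10 genes lie above all WT shScram points, and those of Wnt4 and Krt15 lie below. The HrasG12V shEif2b5 points are shown side by side and share their control with this comparison.

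Calls among the kinases and receptors that carry the signal did not hold with the offsets. Of 24 tested genes of the RAS, RAF, MEK and ERK cascade, 2 were higher and 1 lower (12.5%, against 7.7% of all genes tested), and none was called in both fits. Map2k2, which encodes MEK2, stood at 233, 226 and 209 CPM in WT shScram and at 151, 162 and 147 CPM in HrasG12V shScram (log2 fold change −0.54, SE 0.14, adjusted p 0.025). The groups did not overlap, and the adjusted p of Map2k2 was 0.13 with the offsets. None of the 7 tested EGF receptor and ligand genes was called by edgeR (1 at an unadjusted p under 0.05, 1 called by DESeq2), among them Erbb2 (−0.44, adjusted p 0.0669) and Hbegf (0.81, adjusted p 0.251). Other ligand genes had too few counts to be tested, such as Epgn with 50 counts over the 3 HrasG12V shScram libraries against 7 over WT shScram.

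Genes that keratinocytes express in wounds and under stress gave calls in 1 direction. Of 14 tested members 6 were higher (5 in both fits) and none lower (42.9%, against 7.7% of all genes tested). Among the 6 were Stfa2 and Stfa3, described below. In footprints 2 members were called higher and 1 lower. The median log2 fold change of the list in RNA was 1.07 without and 0.82 with the offsets. The medians by library were 1.02, 1.01 and 0.92 in HrasG12V shScram 1, 2 and 3. Krt6b, a keratin induced in injured epidermis, had 4.05, 6.22 and 5.06 CPM in WT shScram and 47.5, 42.2 and 20.7 CPM in HrasG12V shScram (2.83, SE 0.30, adjusted p 0.000149). Krt16, the type I keratin that pairs with keratin 6, had 66.0, 73.8 and 52.1 CPM against 199, 160 and 120 CPM (1.33, SE 0.19, adjusted p 0.000946). Their levels in HrasG12V shEif2b5, side by side, were 132, 148 and 132 CPM for Krt6b and 342, 361 and 452 CPM for Krt16. The footprint differences of Krt6b and Krt16 were 2.91 and 2.46, without a call (edgeR adjusted p 0.15 and 0.19). Gjb2, which encodes the gap junction protein connexin 26, had 57.9, 78.9 and 70.5 CPM against 157, 144 and 130 CPM (1.05, adjusted p 0.000981).

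The stefins, inhibitors of cysteine proteases, gave the largest rise in counts. Stfa3 had 1032, 1121 and 945 CPM in WT shScram, and 3492, 2273 and 2860 CPM in HrasG12V shScram (1.48, SE 0.19, adjusted p 0.000517), and 818, 1089.5 and 759 CPM in HrasG12V shEif2b5. Stfa2 had 20.6, 27.2 and 18.3 CPM against 129, 79.4 and 65.6 CPM (2.08, adjusted p 0.000741). Stefin genes lie side by side as near-identical copies, so how their reads were divided is uncertain. The offsets lowered the differences to 0.82 for Stfa3 and 1.37 for Stfa2, and both stayed called.

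The cytokine gene Tslp, whose product is an epithelial alarm signal to immune cells, was close to the limit of detection in WT shScram. It had 1 count over the 3 WT shScram libraries and 96 over those of HrasG12V shScram (8.02, 12.2 and 6.91 CPM), a ratio of 87 with a 95% counting interval of 15.2 to 3470 (edgeR adjusted p 0.000333). Its levels in HrasG12V shEif2b5 were 3.70, 4.97 and 3.29 CPM. Cxcl14, a chemokine gene of resting epithelium, rose from 326, 307 and 314 CPM to 417, 495 and 450 CPM (0.52, SE 0.14, adjusted p 0.0304), but kept its call in 1 of the 6 fits without a library. These were the 2 called members of 10 tested cytokine and chemokine genes (20%, against 7.7% of all genes tested). A further 10 members could not be tested, Ccl20 with 34 counts against 5 among them.

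The label of basal cells was checked against markers of the layers. All 18 basal markers were tested, and the keratin genes of the basal layer stood at 7345 CPM (Krt5) and 2540 CPM (Krt14) on average in WT shScram. Keratin genes of the suprabasal spinous layer stood higher still, with Krt1 at 42143 and Krt10 at 33645 CPM. The summed basal markers ran from 16620 to 21630 CPM in WT shScram, below the summed spinous markers. Markers of both layers were thus measured in libraries labelled as basal cells. Krt15, a keratin of basal and follicle cells, fell from 1898, 1832 and 2527 CPM to 920, 1267 and 988 CPM (−0.98, SE 0.17, adjusted p 0.00398) and was the only basal marker called. Krt5 differed by −0.54 (adjusted p 0.0856) and Krt14 by −0.56 (adjusted p 0.0716). The summed spinous markers ran from 68520 to 103300 CPM in WT shScram and from 37880 to 67790 CPM in HrasG12V shScram, and the part of differentiated cells in any result was not tested. In bulk RNA, fewer cells of a type and less RNA per cell cannot be told apart.

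Of 15 tested spinous genes 2 were higher and 1 lower (20%, against 7.7% of all genes tested), and none was in both fits. The median was −0.04, with 5 members above 0. The lower one was Notch3 (−0.49, adjusted p 0.0459). Krtdap, a spinous gene, went from 151, 244 and 247 CPM to 564, 385 and 472 CPM (1.15, adjusted p 0.014; adjusted p 0.11 with the offsets). Fabp5, a fatty acid binding protein gene, went from 846, 1107 and 1323 CPM to 2230, 1602 and 1644 CPM (0.74, adjusted p 0.0361; adjusted p 0.17 with the offsets). In the granular layer 3 of 21 tested genes were higher and none lower (14.3%). Abca12, the lipid transporter of lamellar bodies, had 195, 267 and 193 CPM against 466, 276 and 345 CPM (0.74, adjusted p 0.0263), and Rptn, which encodes repetin of the cornified envelope, differed by 1.92 (adjusted p 0.0264). Both were called in both fits but in only 2 of the 6 fits without a library, with adjusted p of 0.14 each without HrasG12V shScram 1. The list median was 0.20, and −0.04 without HrasG12V shScram 1.

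**Figure D4:**
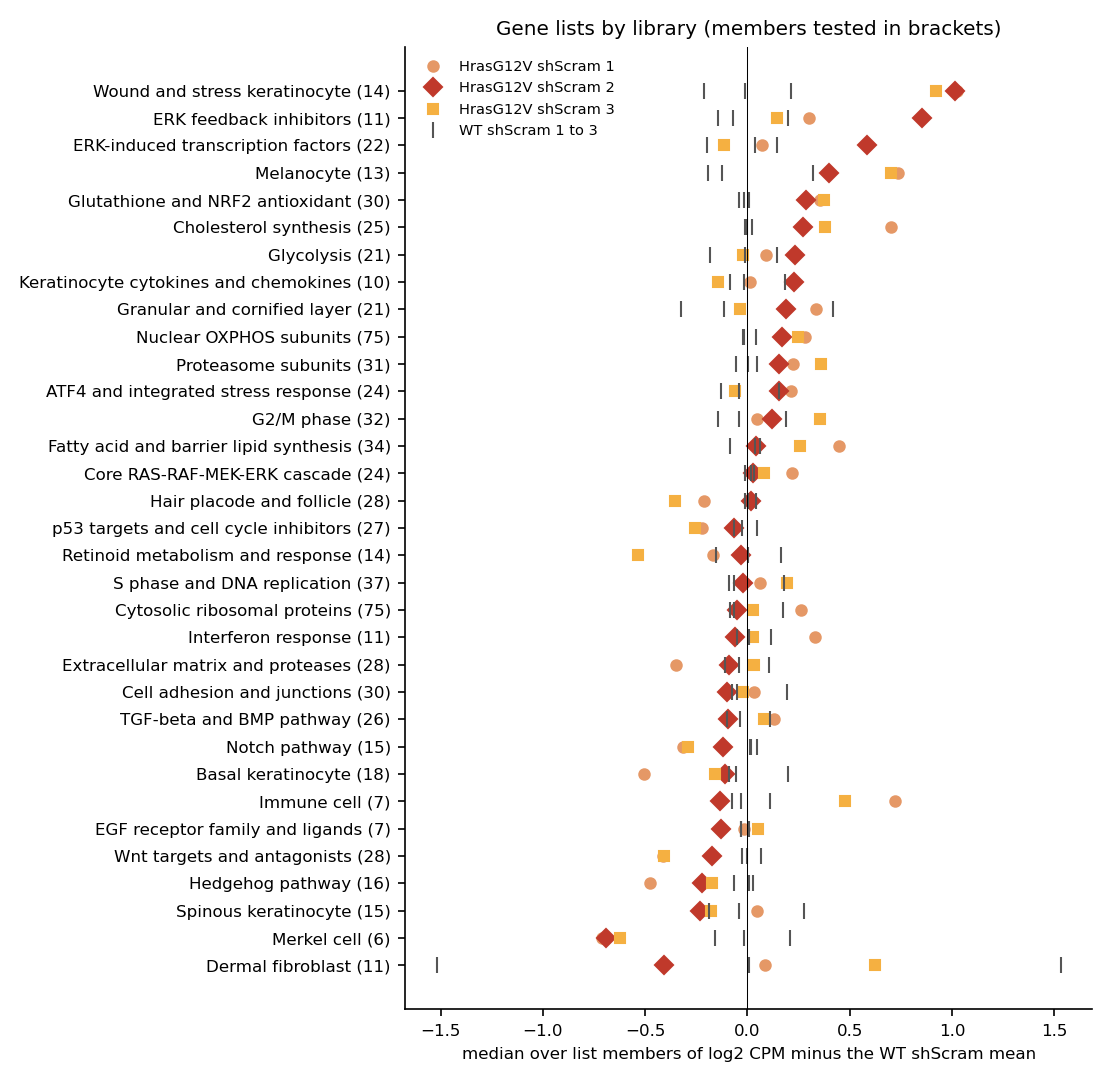
Median over the tested members of each gene list of log2 CPM minus the WT shScram mean (x axis), by library, for lists with 6 or more tested members. The 3 HrasG12V shScram libraries lie at 0.92 to 1.02 for the wound and stress list and between −0.71 and −0.62 for the Merkel cell list, while the WT shScram libraries of the dermal fibroblast list spread from −1.52 to 1.53.

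Most calls among genes of Wnt signalling were lower. Of 28 tested Wnt ligands, targets and antagonists 8 were lower (5 in both fits) and 1 higher (32.1%, against 7.7% of all genes tested). The median was −0.47 without and −0.23 with the offsets, and −0.17 in HrasG12V shScram 2 alone. The list has a high mean coding GC (58.4%). In footprints its median was −0.17, with 1 member called higher and 1 lower. Wnt4, a ligand made by basal keratinocytes, fell from 289, 253 and 272 CPM to 150, 138 and 120 CPM (log2 fold change −1.0, SE 0.14, adjusted p 0.000824), with 226, 226 and 263 CPM in HrasG12V shEif2b5. Wnt7a fell from 24.7, 24.9 and 32.4 CPM to 10.7, 16.1 and 13.2 CPM (−1.10, SE 0.22, adjusted p 0.00729), and Sp5, a transcription factor gene induced by Wnt, from 38.9, 30.3 and 26.9 CPM to 9.16, 18.9 and 7.12 CPM (−1.58, SE 0.28, adjusted p 0.00446). These 3 were called in all 6 fits without 1 library, but not in footprints (edgeR adjusted p 0.30, 0.70 and 0.40). Wnt7b (−0.69) and Wnt3 (−0.74) fell in both fits, and the target genes Axin2 (−0.58, adjusted p 0.0405), Nkd1 and Notum were called in the first fit only. The exception was Wif1, which encodes a secreted protein that binds and inhibits Wnt ligands. It rose from 5.26, 6.61 and 3.25 CPM to 33.6, 25 and 27.2 CPM (2.61, SE 0.31, adjusted p 0.000333) and had 28.9, 16.3 and 34.3 CPM in HrasG12V shEif2b5.

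Hedgehog and hair follicle genes gave fewer calls. Shh, the ligand made by hair placodes, had 161, 166 and 167 CPM in WT shScram, and 69.1, 107 and 67.1 CPM in HrasG12V shScram (−1.05, SE 0.20, adjusted p 0.00734), and 196, 111 and 178 CPM in HrasG12V shEif2b5. Ptch1, a gene of its receptor and a target of the pathway, differed by −0.55 (adjusted p 0.0371) and was not called with the offsets (adjusted p 0.16). Of 16 tested Hedgehog genes 3 were lower and 1 higher (25%, against 7.7% of all genes tested). Their median was −0.29, and 1 lower and 1 higher gene were called in both fits. With the offsets the median was −0.04 and the calls were 3 higher and 1 lower, so the direction of the list depends on the fit. Over 28 tested placode and follicle genes 3 were lower and 2 higher (17.9%), and the median of −0.20 was 0.01 in HrasG12V shScram 2 alone. Trps1, a follicle transcription factor gene, and Ctgf were the higher ones. Trps1 kept its call in 1 of the 6 fits without 1 library.

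Among retinoid genes 1 stood apart. Aldh1a3, which encodes an enzyme that makes retinoic acid, had 4 counts over the WT shScram libraries (0.405, 0.389 and 0.362 CPM) and 130 over HrasG12V shScram (11.3, 8.88 and 11.9 CPM). Its log2 fold change was 4.71 (SE 0.49, adjusted p 0.000102), the largest among the genes that averaged 10 CPM or more in 1 of the groups, and its levels in HrasG12V shEif2b5 were 8.88, 4.61 and 7.05 CPM. Cyp26b1, which degrades retinoic acid, and the receptor gene Rara differed by −1.31 and −0.53 (adjusted p 0.0401 and 0.0449) in the first fit only. The other 11 of 14 tested retinoid genes had no call (21.4% called, against 7.7% of all genes tested).

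Matrix and junction genes moved singly. Thbs2, which encodes thrombospondin 2, rose from 16.2, 11.7 and 13.0 CPM to 35.3, 28.3 and 55.3 CPM (1.58, SE 0.24, adjusted p 0.00154). Adamts19, a secreted metalloproteinase gene, gave the largest fall among genes with such a mean, from 10.9, 10.5 and 15.2 CPM to 2.67, 2.22 and 4.75 CPM (−1.87, SE 0.33, adjusted p 0.00381). Dsc2, a desmosomal cadherin gene, rose by 0.97 (adjusted p 0.0167), while Gjb5, which encodes connexin 31.1, fell by 0.71 on the log2 scale (adjusted p 0.0448). Dsc2 and Gjb5 each kept their call in 2 of the 6 fits without 1 library. Over 28 tested matrix genes the median was −0.13, and over 30 junction genes −0.01.

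Several enzymes of cholesterol synthesis were higher. Of 25 genes on the list, all tested, 11 were higher (6 in both fits) and none lower (44.0%, against 7.7% of all genes tested). The median was 0.48 without and 0.43 with the offsets. The median was 0.28 in HrasG12V shScram 2 alone, where no member was called. Idi1, an isomerase of the isoprenoid steps, had 26.7, 29.1 and 44.3 CPM against 101, 57.2 and 86.3 CPM (1.27, SE 0.22, adjusted p 0.00353). Cyp51, the lanosterol demethylase gene, had 52.6, 83.1 and 74.5 CPM against 144, 113 and 123 CPM (0.86, SE 0.17, adjusted p 0.00898). Their levels in HrasG12V shEif2b5 were 34.8, 41.5 and 30.1 CPM for Idi1 and 73.7, 81.6 and 61.1 CPM for Cyp51. Ebp (0.90), Dhcr7 (0.61), Tm7sf2 (0.70) and Insig1 (0.61) completed the calls in both fits. Cyp51 kept its call in 4 of the 6 fits without 1 library (adjusted p 0.065 without WT shScram 1). In footprints 0 of the 25 members were called, and their median was 0.29.

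Lipid and antioxidant genes were called in 1 direction. Of 34 fatty acid and barrier lipid genes 6 were higher (2 in both fits) and none lower (17.6%, against 7.7% of all genes tested). The list has a mean coding GC of 51.0%, and over all genes of 47.3% to 51.4% GC 119 were higher and 14 lower. Its median of 0.32 was 0.04 in HrasG12V shScram 2 alone, and footprints called 1 of 34 members, higher. Degs1, the desaturase that makes ceramides, went from 29.1, 39.6 and 36.3 CPM to 90.9, 81.1 and 79.9 CPM (1.26, SE 0.17, adjusted p 0.000595), and Lipk, an epidermal lipase gene, from 1.62, 4.66 and 1.99 CPM to 11.3, 9.99 and 17.5 CPM (2.31, adjusted p 0.00284). In HrasG12V shEif2b5 Degs1 stood at 46.6, 38.0 and 33.4 CPM and Lipk at 3.70, 5.67 and 4.70 CPM. Of 30 glutathione and NRF2 genes 6 were higher (20%, 3 in both fits) and none lower, with a median of 0.25 without and 0.30 with the offsets. Footprints called 3 of 29 members, all higher. Nfe2l2, which encodes the antioxidant regulator NRF2, had 38.0, 40.8 and 32.5 CPM against 73.3, 59.96 and 74.5 CPM (0.92, SE 0.18, adjusted p 0.00684). Gsta4 and Nqo1, detoxifying enzymes controlled by NRF2, were near the lower end of detection in WT shScram, with 20 and 16 counts over 3 libraries, against 141 and 107 in HrasG12V shScram (2.64 and 2.48, adjusted p 0.00284 and 0.00289). All 3 genes were called in both fits.

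Of 75 nuclear OXPHOS genes 12 were higher and 2 lower (18.7%, against 7.7% of all genes tested), with 5 and 0 in both fits. In footprints 1 of the 75 was called, higher. In RNA their median of 0.27 was 0.11 with the offsets. Ndufa4 stood out, from 17.8, 23.3 and 19.5 CPM to 53.8, 52.7 and 51.2 CPM (1.38, SE 0.18, adjusted p 0.000572), with 16.3, 20.2 and 13.6 CPM in HrasG12V shEif2b5. Cox7a2, a small subunit of cytochrome c oxidase, went from 51.0, 57.1 and 43.9 CPM to 112, 91.0 and 109 CPM (1.06, adjusted p 0.000981). Of 31 proteasome genes 7 were higher (22.6%) and 1 remained in both fits, Psmb2 (0.86, adjusted p 0.0103). In footprints 0 of the 31 were called. Of 75 ribosomal protein genes 3 were higher and none in both fits, and the median of 0.06 turned to −0.11 with the offsets and to −0.06 in HrasG12V shScram 2 alone. Rpl39 shows the dependence on library, at 195, 176 and 197 CPM in WT shScram against 561, 296 and 421 CPM, with a log2 fold change of 1.18 that was 0.51 with the offsets (adjusted p 0.0518).

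Proliferation genes gave 1 call. None of 37 S phase genes was called by edgeR, where 2 of them, Prim1 and Rfc3, had the smallest adjusted p (0.103 and 0.124), 6 had an unadjusted p under 0.05, and DESeq2 called 0. Of 32 G2/M genes 1 was higher, Mad2l1 (1.02, adjusted p 0.0182; adjusted p 0.15 with the offsets), and the median of 0.18 was −0.01 with the offsets. Among p53 targets and cell cycle inhibitors 4 of 27 were lower and 1 higher. Cdkn1c, the inhibitor p57 and a gene near Hras, had 62.7, 52.8 and 35.3 CPM against 19.7, 35.5 and 16.8 CPM (−1.13, adjusted p 0.0247), with overlapping ranges. Gadd45g fell by 1.02 on the log2 scale (adjusted p 0.0148) and Plk2 rose by 0.75 (adjusted p 0.0198), all 3 in both fits. Of the 6 fits without 1 library, Cdkn1c kept its call in 2, Gadd45g in 3 and Plk2 in 1.

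Of 24 ATF4 and integrated stress response genes 3 were higher (12.5%, against 7.7% of all genes tested in either direction), and Slc7a5, an amino acid transporter gene, was the only one in both fits (0.60, adjusted p 0.0269). Gapdh was the 1 of 21 glycolysis genes called (0.56, adjusted p 0.0409). Tgfb1 and Id2 were the 2 called of 26 TGF-beta and BMP genes (0.68 and 1.10), and Notch3 the 1 of 15 Notch genes (−0.49), with a log2 fold change of −0.05 with the offsets. Slc7a5 kept its call in 2 of the 6 fits without 1 library, and Gapdh, Tgfb1, Id2 and Notch3 in 1 each. None of 11 tested interferon genes was called by edgeR, with Ddx58 and Stat2 at adjusted p 0.286 and 0.347, 0 had an unadjusted p under 0.05, and DESeq2 called 0. Of 5 tested Skint genes, a family of butyrophilin-like genes with similar copies, 1 was higher and 1 lower. Skint3 had 6.07, 5.83 and 3.80 CPM against 18.1, 6.11 and 10.6 CPM (1.29, adjusted p 0.0448) and was not called with the offsets (adjusted p 0.30). Skint9 fell from 19.8, 16.3 and 34.4 CPM to 9.55, 3.89 and 6.48 CPM (−1.76, adjusted p 0.0182; adjusted p 0.08 without HrasG12V shScram 3).

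Markers of other cell types were tested as well. The melanocyte genes gave 2 calls of 13 (15.4%, against 7.7% of all genes tested), Tyr and Tyrp1, which encode enzymes of pigment synthesis. Tyr had 15.4, 14.8 and 15.2 CPM against 30.7, 32.2 and 33.7 CPM (1.09, SE 0.20, adjusted p 0.00509). The summed level of the whole melanocyte list was 499 to 709 CPM in WT shScram and 756 to 908 CPM in HrasG12V shScram. The median log2 fold change of its tested members was 0.59. Merkel cell markers gave 0 calls of 6 tested by edgeR and by DESeq2 (3 at an unadjusted p under 0.05) and a median of −0.68, and Insm1 and Krt8 stood at −1.06 and −0.72 (edgeR adjusted p 0.0909 and 0.107). Of 7 immune markers Thy1 was called (8.90, 6.99 and 3.62 CPM against 16.6, 21.1 and 18.6 CPM; 1.61, adjusted p 0.00729), while Ptprc and most others stayed without a call and Cd207 had 0 counts. Thy1 is not particular to immune cells, and the summed immune markers were 44.7 to 49.4 CPM against 61.1 to 69.9 CPM. Dermal fibroblast markers had 0 calls of 11 by edgeR and by DESeq2 (1 at an unadjusted p under 0.05), but their sum ran from 853 to 2985 CPM within WT shScram and from 1080 to 1624 CPM in HrasG12V shScram. Endothelial, erythroid and skeletal muscle markers were too low for all but 1, 1 and 2 genes, and the 6 globin genes were listed at 0. The part of these cells in any result above was not tested. Krt6b, Shh, Cdkn1c, Cd9, Ankrd55, Notch3, Fxyd3, Tmem33 and Krt8 overlap a gene on the opposite strand, and as the strand setting of the counting is not given in the sources used here, their reads cannot be told apart from those of that gene.

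Further genes were chosen by the size of their change. Ehd3, which encodes a protein of endosomal recycling, rose from 1.62, 1.17 and 2.71 CPM to 14.1, 10.5 and 12.7 CPM (2.63, SE 0.35, adjusted p 0.000572), and Prr9, a proline-rich gene of the epidermal gene cluster, from 17.4, 4.66 and 9.58 CPM to 58.6, 37.2 and 50.5 CPM (2.26, SE 0.29, adjusted p 0.000572). Sulf1, a heparan sulfate 6-O-endosulfatase gene, differed by 2.16 (adjusted p 0.0101; adjusted p 0.077 without HrasG12V shScram 1). In counts, large rises were also seen for Fgfbp1, which releases FGFs from the matrix (223, 257 and 308 CPM against 450, 353 and 433 CPM; 0.65, adjusted p 0.0219), and Cd9, a tetraspanin gene (223, 203 and 247 CPM against 356, 349 and 395 CPM; 0.71, adjusted p 0.0101). They were called in 2 and 4 of the 6 fits without a library. Large falls were seen for the actin-severing protein gene Gsn (672, 774 and 627 CPM against 470, 400 and 338 CPM; −0.78, adjusted p 0.00729) and the kinesin gene Kif26a (512, 499 and 524 CPM against 203, 309 and 255 CPM; −1.01, adjusted p 0.00211). Sh3pxd2a, a podosome scaffold gene, fell by 0.95 on the log2 scale.

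The lowest genes were mostly of low abundance. Pet117, a mitochondrial assembly factor gene, had 10.9, 10.9 and 15.01 CPM against 3.82, 6.11 and 1.94 CPM (−1.81, adjusted p 0.00601), but its coding exons overlap those of Kat14 on the same strand, so its reads are uncertain. Ankrd55 (−1.68), Fgfbp3 (−1.53), Slc39a2 (−1.37), Adgrb2 (−1.36), Grm4 (−1.35) and Fcho1 (−1.35) fell as well. Groups without overlap were a condition for naming these genes, as were calls in both fits. Of these, Adgrb2 was called in all 6 fits without 1 library. The highest adjusted p of the others was 0.062 for Ankrd55 (without HrasG12V shScram 3), 0.08 for Fgfbp3 (WT shScram 1), 0.063 for Slc39a2 (WT shScram 2) and 0.06 and 0.086 for Grm4 and Fcho1 (HrasG12V shScram 1).

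The footprint libraries of the same 2 conditions share no library with the RNA and show which differences were also present on ribosomes. Whether same-numbered RNA and footprint libraries came from the same material was not tested, so the footprints are not taken as a separate check. Summed CPM of Y-linked genes in WT shScram 1 to 3 was 75.3, 38.5 and 93.3 in RNA and 136, 58.5 and 131 in footprints. In HrasG12V shScram it was 91.3, 50.5 and 102 in RNA and 151, 84.1 and 107 in footprints. Of the 306 genes called in both fits, 300 were tested in footprints. The footprint difference had the sign of the RNA difference for 227 of them (75.7%), against 57.6% of 10793 genes tested in both kinds. For genes called only without the offsets the share was 68.9%, and for uncalled genes 56.4%. 62 of the 300 were called in footprints in the same direction, 51 higher and 11 lower, and none in the opposite one, where footprints called 195 of 11448 genes (1.7%). The ERK genes that rose in RNA and were named above had footprint log2 fold changes of 1.5 for Dusp6, 1.32 for Spry1, 1.49 for Spry2, 2.62 for Spry4, 1.88 for Etv4, 1.36 for Etv5 and 0.76 for Egr1. The difference between RNA and footprints was not called for any of these 7 genes (adjusted p 0.55 to 0.99). Other members of these 2 lists were called in footprints and not in RNA. They were Spred1 (0.15 in RNA, 1.11 in footprints with adjusted p 0.00292), Junb (0.39 and 0.94, adjusted p 0.00202), Myc (0.35 and 0.78, adjusted p 0.0168) and Fosl2 (−0.54 and −0.62, adjusted p 0.0303). The difference between the kinds was not called for these either, with an adjusted p of 0.069 for Spred1 and of 0.48 to 0.96 for the others.

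**Figure D5:**
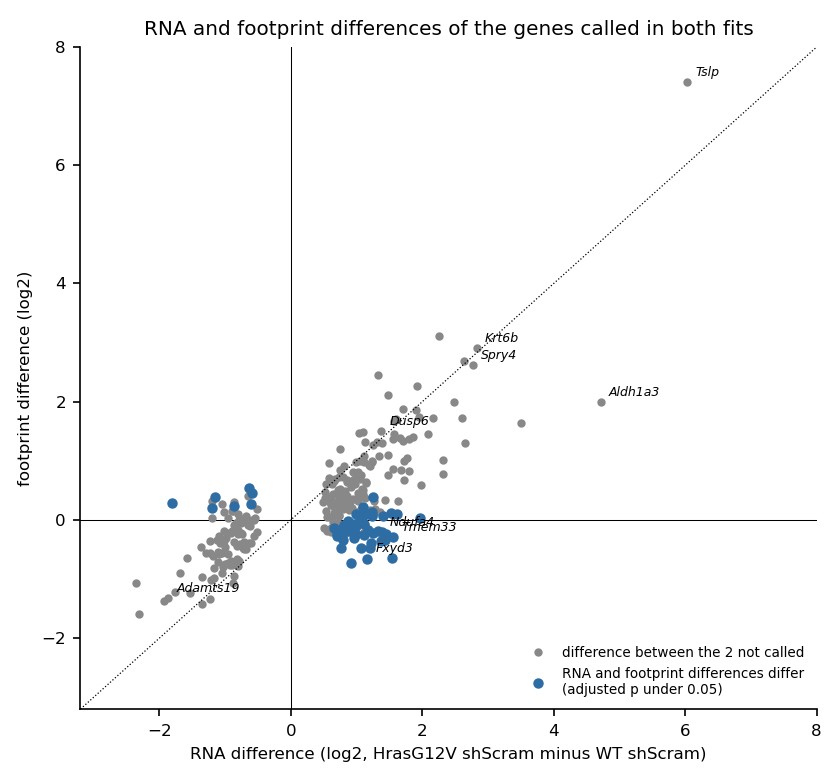
RNA difference (x axis) against footprint difference (y axis) between HrasG12V shScram and WT shScram, both log2, for the 300 genes called in both RNA fits and tested in footprints, with the line of equality dotted. Krt6b and Spry4 lie near the line, and the 56 genes in blue are those whose RNA and footprint differences differ at an adjusted p under 0.05.

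Other genes rose in RNA without a rise in footprints. A single model over all 18 libraries tested the RNA difference minus the footprint difference, and called 120 of 11990 genes (1.00%), 105 with a more positive RNA difference (0.876%) and 15 with a more negative one (0.125%). 104 of them were also called in RNA, and 56 of the 306 genes called in both fits were among them. Fxyd3, a regulator of the sodium pump, had RNA levels of 40.5, 42.4 and 33.5 CPM against 92.8, 83.3 and 80.7 CPM (1.16, adjusted p 0.000595), while its footprints were 290, 207 and 171 CPM against 164, 128 and 130 CPM. Ndufa4 (1.38 in RNA, −0.20 in footprints; adjusted p of the difference 0.012) and Cox7a2 (1.06 and −0.02; 0.012) were of the same kind, and so were Psmb2, Tyr and Cd9 (adjusted p 0.035, 0.022 and 0.021). In HrasG12V shEif2b5, Fxyd3 stood at 32.2, 31.6 and 27.7 CPM. The genes with a more positive RNA difference had short coding sequences of low GC, with a median of 789 bases and 46.7% GC over the 103 that were tested in RNA, against 1446 bases and 53.2% over all tested genes. With the offsets in both kinds of library 65 genes were called, and without HrasG12V shScram libraries 1 and 3 there were 8, and leaving out each library in turn gave 14 to 632.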

How the data were processed

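RNA and ribosome footprint libraries of cells labelled as epidermal basal cells were used as counts per gene over coding sequences. The authors deposited these counts as whole numbers. Per the submitters' processing notes, the tools were Bowtie, TopHat2 and HTSeq, and the build was mm10. Their versions and the strand setting are not given in the sources used here. Genes were matched to a mouse annotation by symbol, 19892 of 20655, or by synonym, 617.

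Genes were kept by edgeR's filterByExpr (at least 10 counts, 15 in total), scaled by TMM and tested with edgeR 4.0.16 (R 4.3.3) by the robust quasi-likelihood test over all 9 RNA libraries, which share 1 estimate of the spread, with Benjamini-Hochberg adjustment over all genes tested and a threshold of 0.05. The offsets were smooth curves over coding GC and length, fitted per library with mgcv 1.9.3. RNA and footprint differences were compared by an interaction term over 18 libraries, without pairing of RNA and footprint libraries. The fits were tested on simulated data. Counting intervals are 95% exact binomial intervals and cover counting error only. DESeq2 1.42.0, other scalings and filters, the 6 libraries alone, a replicate block and fits without 1 library were alternatives. A depth class term was added after seeing the data.

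The named genes were Hras and Eif2b5. Added to them were the 10 highest and 10 lowest fold changes, and the 5 largest rises and 5 largest falls in CPM, among genes called in both fits. These needed a mean of at least 10 CPM in the higher group, groups without overlap and no predicted gene model. Up to 4 called members of each gene list were named, or up to 2 members where none was called, as were the 5 genes with the smallest adjusted p between RNA and footprints. Other members are given as values and were chosen after their values were seen. The comparison, the gene lists and the rules were chosen with earlier results of these data known. Some genes that these rules name are not reported here.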

Additional observations from a re-analysis of the deposited data

Results flagged for a closer look

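5 genes differed between RNA and footprints in how HrasG12V shScram and WT shScram compared, by a test of the difference itself over 18 libraries. They had the smallest adjusted p of the genes with at least 10 CPM in an RNA group. Over all genes the calls of this test fell from 120 to 65 with the offsets. The RNA log2 difference minus the footprint log2 difference was 1.82 for Fxyd3 (adjusted p 0.000561) and 1.96 for 1810022K09Rik (adjusted p 0.00827). RNA of 1810022K09Rik stood at 6.47, 6.61 and 4.16 CPM in WT shScram and at 17.9, 16.7 and 28.9 CPM in HrasG12V shScram. It was 1.65 for Hist1h3a, a histone H3 gene whose near-identical copies make its reads uncertain, with 64.3, 64.9 and 54.8 CPM against 113, 102 and 131 CPM. It was 1.85 for Tmem33, which encodes a membrane protein of the endoplasmic reticulum, with 11.7, 10.1 and 10.5 CPM against 31.1, 23.3 and 38.2 CPM. It was 1.23 for Snrpb2, which encodes a U2 snRNP protein, with 18.2, 18.3 and 19.2 CPM against 38.9, 35.0 and 40.1 CPM (adjusted p 0.0097). The RNA difference of Snrpb2 between HrasG12V and WT was not called with the offsets (adjusted p 0.13).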

How the results depend on the processing

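The count of 854 called genes was 852 with DESeq2 size factors and 854 by the DESeq2 Wald test. It was 389 in a fit of the 6 libraries alone, 406 with the coding GC and length offsets, 47 without HrasG12V shScram libraries 1 and 3, and 348 with a replicate block and the offsets. Leaving out each library in turn gave 189 to 2434. The 120 genes called between RNA and footprints became 192 without a filter, 65 with the offsets and 8 without HrasG12V shScram libraries 1 and 3, and 14 to 632 without each library in turn. Same-numbered libraries deviated with correlations of −0.04, 0.23 and 0.28, and unlike-numbered ones with −0.27 to 0.06. The numbers were not taken as pairs in the main fit, and whether they mark a shared origin was not tested. A replicate block gave 648 calls, and 127 between RNA and footprints. Of the 102 named genes with a call, 33 lost it with the offsets, 31 in the 6 libraries alone and 84 without HrasG12V shScram libraries 1 and 3, and none changed direction in any alternative run. The cause of these changes was not tested. The 3 libraries a group, 1771365 counts in the shallowest library and strain as a confounder limit what can be said.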

Other observations

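Other genes called in both fits, singled out after their values were seen, were not on the lists. Emb, which encodes the membrane glycoprotein embigin, differed by 1.76 (adjusted p 0.000333), Plet1 by 1.81 (adjusted p 0.000572) and S100a10, an annexin partner gene, by 1.09 (adjusted p 0.000572). Ptges, the prostaglandin E synthase gene, rose by 1.65 (adjusted p 0.00247). Gas6, a ligand gene of the TAM receptors, fell by 0.81 on the log2 scale (adjusted p 0.00284), and Nuak1, a kinase gene, fell by 1.03 (adjusted p 0.00196).

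Within 5 Mb of Hras, 9 of 71 tested genes were called and 6 in both fits (8.45%, against 2.76% over all genes tested). These 6 were Cdkn1c, Dhcr7, Fadd, Ifitm3, Mob2 and Urah. Ifitm3 differed by 1.05 (adjusted p 0.00684), and by 0.69 in footprints (adjusted p 0.0114). Within 5 Mb of Gt(ROSA)26Sor, 2 of 48 genes were called and 1 in both fits (2.08%). Strain differences near either locus cannot be told apart from the genotype here.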
